A study of Drosophila melanogaster with 2 samples.

Results

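The genes described here are 10 regulators of mesoderm formation and myoblast fusion in Drosophila melanogaster: twi, sna, Mef2, how, kirre, sns, mbc, rols, lmd and htl. They are a named list out of 13968 coding genes on the chromosome arms, and each was examined over its gene body and 5000 bp on either side. Binding of a Ptx1 fusion protein had been mapped by chromatin immunoprecipitation and sequencing in whole embryos 0 to 24 h old, with 2 biological replicates in 1 group and no second condition, from fragments of 200 to 800 bp. Ptx1 is a homeodomain transcription factor of the Pitx class. All embryos came from the strain Ptx1-GFP, transgenic flies with an insertion targeting Ptx1 that express Ptx1 joined to eGFP; the protocol text gives an anti-GFP antibody, whereas the antibody label reads Ptx1. A sample therefore pools every tissue and every stage of embryogenesis, and a site bound in a few cells cannot be told apart from one bound weakly in many. The labels do not say what drives expression of the fusion protein, and no control sample was analysed here. A summit is the position of a peak's maximum, and a peak is called conservative when it is in the list of 6840 peaks that the authors kept from the replicate pair after irreproducible discovery rate (IDR) thresholding. Each score below is the authors' strength value for a peak, has no stated unit and serves to rank peaks within 1 list. The replicates' own thresholded lists held 5480 and 4825 peaks, and read depth is unknown.

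Twist and Snail act at the start of mesoderm formation: Twist is a basic helix-loop-helix activator, and Snail is a zinc-finger repressor of non-mesodermal genes. Heartless, the product of htl, is the fibroblast growth factor (FGF) receptor through which mesoderm cells spread, and Mef2 is the MADS-box activator of muscle differentiation genes. Body wall muscles form by fusion of founder cells with fusion-competent myoblasts. The immunoglobulin-type receptors Kirre, in founder cells, and Sns, in fusion-competent cells, hold the cells together, while the adaptor Rols and Mbc, a guanine nucleotide exchange factor for Rac, act beneath the membrane. Lmd is a Gli-type zinc-finger factor of fusion-competent cells, and How is a STAR-family RNA-binding protein of muscle and tendon.

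The following windows reach 50 bp either side of a summit and are read 5′ to 3′ on the plus strand of dm6 from the RefSeq genome sequence. They are the strongest sites that belong to mbc, how, rols, kirre, lmd and htl by a start within 1000 bp or by nearest start, with a pair of kirre sites that hold the core TAATCC. Capitals mark matches on either strand to the homeodomain core TAATCC or its variants, written TAAGCC and as TAATTA, to the E-box CANNTG, which basic helix-loop-helix factors such as Twist read, or to the Mef2 motif.
mbc start (chr3R:23781519-23781619): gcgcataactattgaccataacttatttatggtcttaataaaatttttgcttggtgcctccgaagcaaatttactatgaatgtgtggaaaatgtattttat
mbc intron (chr3R:23782877-23782977): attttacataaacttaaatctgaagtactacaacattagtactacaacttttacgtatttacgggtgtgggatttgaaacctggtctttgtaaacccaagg
how intron (chr3R:22049263-22049363): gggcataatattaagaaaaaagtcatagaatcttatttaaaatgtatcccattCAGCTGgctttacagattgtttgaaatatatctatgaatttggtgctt
how upstream (chr3R:22039603-22039703): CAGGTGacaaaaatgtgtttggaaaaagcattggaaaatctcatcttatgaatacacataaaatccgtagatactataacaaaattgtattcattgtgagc
rols internal start (chr3L:12056772-12056872): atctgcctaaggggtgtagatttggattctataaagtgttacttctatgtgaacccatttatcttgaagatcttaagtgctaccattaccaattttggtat
kirre before its late starts (chrX:3097151-3097251): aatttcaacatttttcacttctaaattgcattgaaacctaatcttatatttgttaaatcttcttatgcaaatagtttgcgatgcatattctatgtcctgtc
kirre intron run (chrX:3019725-3019825): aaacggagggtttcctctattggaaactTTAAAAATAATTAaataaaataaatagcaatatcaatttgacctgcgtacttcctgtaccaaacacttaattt
kirre and Syx4 intron (chrX:2743236-2743336): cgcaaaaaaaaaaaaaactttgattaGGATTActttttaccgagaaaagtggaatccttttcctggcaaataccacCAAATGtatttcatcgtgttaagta
kirre intron upstream of Syx4 (chrX:2744167-2744267): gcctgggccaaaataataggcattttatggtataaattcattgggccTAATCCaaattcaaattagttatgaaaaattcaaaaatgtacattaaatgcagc
lmd upstream (chr3R:23028644-23028744): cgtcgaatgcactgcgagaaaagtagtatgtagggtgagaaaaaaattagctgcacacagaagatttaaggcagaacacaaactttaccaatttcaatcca
htl internal start (chr3R:18049704-18049804): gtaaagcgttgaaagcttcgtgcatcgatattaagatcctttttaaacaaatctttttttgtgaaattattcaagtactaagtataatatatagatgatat
Most of these windows are rich in A and T. In the kirre intron run the capitals hold TAATTA and the Mef2 motif, which overlap. None of these motifs is in the windows shown at mbc, at the internal starts of rols and htl, and upstream of lmd. The window ahead of the late kirre starts holds none either. TAATCC appears in the pair of kirre sites chosen for it.

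Of the 10 genes, 8 had at least 1 conservative summit in their window, and sna and sns had none. Over all coding genes the share was 56.6%, but long windows catch summits more often. Among the 3 members with windows under 20 kb (sna, lmd and htl) 2 had a summit, against 53.7% of coding genes of that size. Both members with windows of 20 to 50 kb (mbc and how) had one, against 72.6% of such genes. Of the 5 with windows over 50 kb (twi, Mef2, rols, kirre and sns) 4 had one, against 78.2%. These counts lie near the shares of coding genes of like size, so the presence of a summit does not set the members apart. The lists thresholded within a single replicate had summits in the windows of those 8 genes as well, against 51.4% of coding genes in replicate 1, 48.7% in replicate 2 and 44.8% in both.

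The members' windows together held 56 conservative summits over 789 kb, or 0.710 per 10 kb, against 0.562 per 10 kb over the windows of all coding genes. Kirre held 29 of them, and without it the members had 27 summits at 0.702 per 10 kb. Within 1000 bp of one of their own transcription start sites (TSS) how, mbc, rols and htl had a summit, 4 of 10 members, against 26.7% of coding genes. When each summit was given only to the coding gene with the nearest TSS, 7 of 10 members kept at least 1, against 28.0% of coding genes, and twi joined sna and sns without one. Only 29 of the 56 summits had the member itself as the nearest gene, and 9 lay within 1000 bp of the TSS of a neighbour. The members' windows are also longer than most, with a median of 51.2 kb against 12.2 kb over all coding genes.

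**Figure D1:**
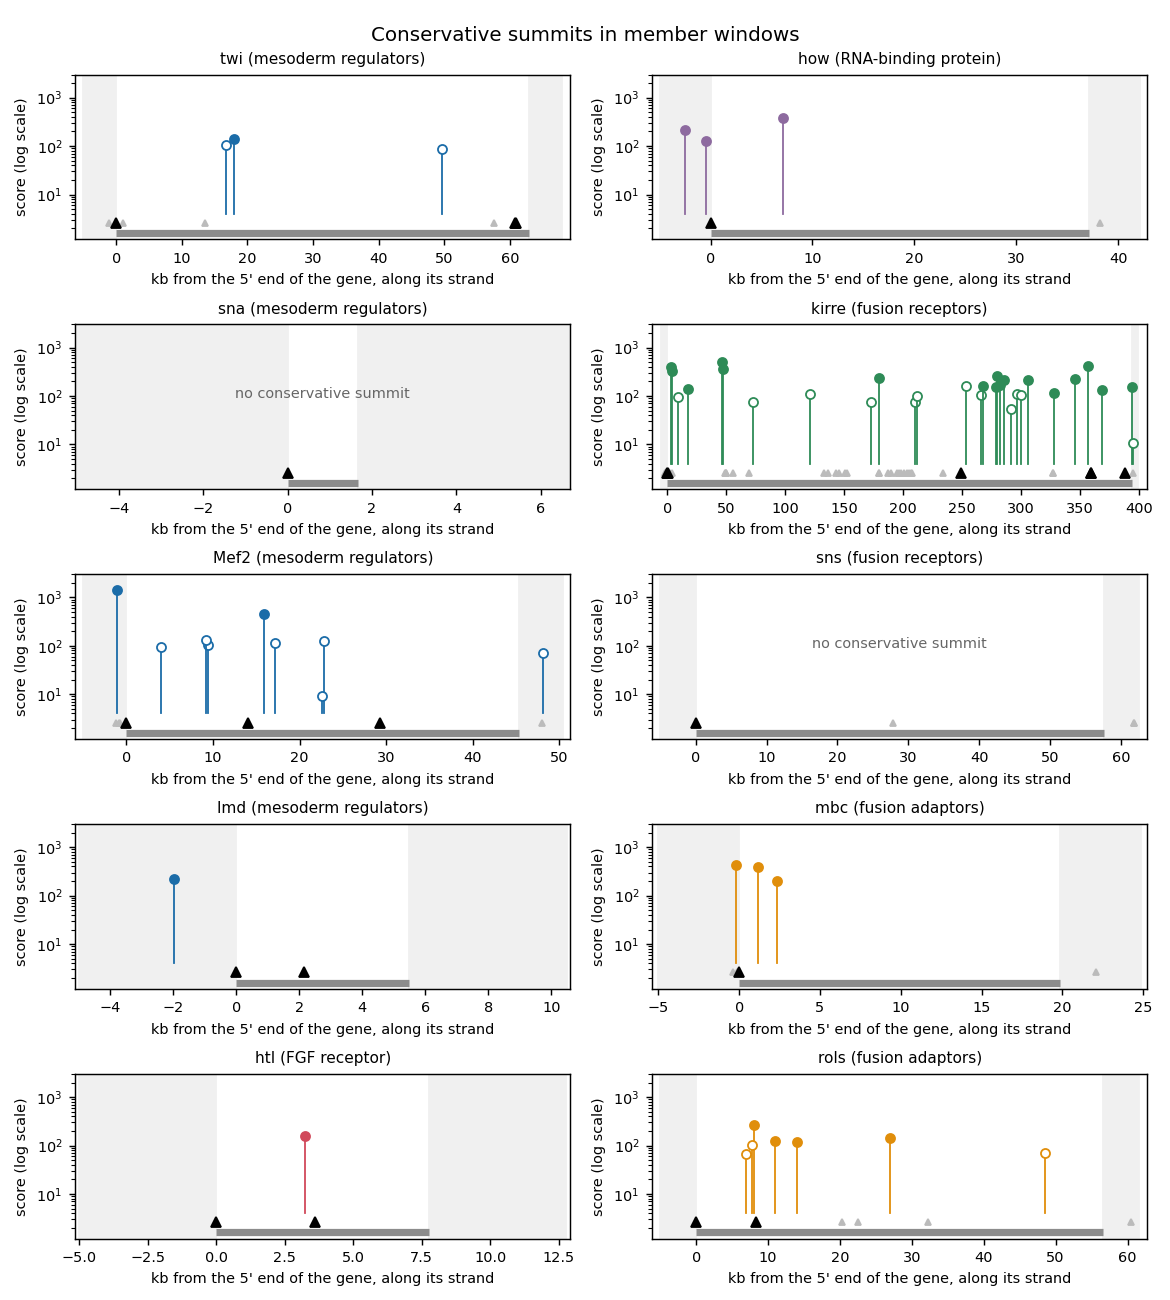
Conservative summits in the window of each member, by distance from the gene's 5′ end along its strand (kb) and by score (log scale). Grey bars are gene bodies, pale bands the 5000 bp flanks, black triangles the member's own starts and grey triangles starts of other coding genes; filled circles have a thresholded summit within 100 bp in both replicates, open circles do not. Summits of how and mbc lie at the 5′ end and are all filled, while those of kirre run along the whole gene.

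Among the mesoderm regulators, Mef2 (FBgn0011656, 2R, 9913496 to 9958858, minus strand) had 9 conservative summits. Of 13968 coding genes, 62 had at least 9, Mef2 included. The highest of them, at 9959922, scored 1438 in the conservative list, 861 in replicate 1 and 572 in replicate 2, and ranked 48. It lay 1064 bp upstream of the first Mef2 start, but also in an intron of the neighbouring gene Pal1 and 156 bp upstream of a Pal1 start, so which gene it belongs to cannot be told apart. Pal1 encodes an enzyme of neuropeptide amidation. The strongest summit inside Mef2, at 9942988, scored 456, with 241 in replicate 1 and 208 in replicate 2. It lay in an untranslated exon 1776 bp downstream of the middle of 3 Mef2 starts, and both replicates had it in their thresholded lists.

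The other Mef2 sites were weaker and less shared. The intronic summit at 9949700 scored 131, with 92.6 in replicate 1, where it was thresholded, and 36.2 in replicate 2, where it was not. The summit at 9954806 scored 94.0 and was thresholded in replicate 2 alone (53.7, against 41.1 in replicate 1). Summits at 9936001 (score 124), 9941671 (113) and 9949435 (102) were thresholded in neither replicate's own list. Of the remaining pair, 9910808 (70.8) lay 85 bp upstream of Etf-QO, a mitochondrial flavoprotein gene beyond the 3′ end of Mef2, and 9936222 (9.14) belonged to a peak that shares bases with the one at 9936001. In all, 2 of the 9 Mef2 sites were in both replicates' thresholded lists, 2 in 1 of them and 5 in neither. At 9949435 and 9936222 neither replicate had even a ranked peak with a summit within 100 bp.

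twi (FBgn0003900, 2R, 22985374 to 23048325) had 3 conservative summits, all in an intron of its long transcript and none within 1000 bp of a twi start. They scored 105 at 23002066, 137 at 23003296 and 88.2 at 23034940. Replicate 1 scores were 67.3, 82.6 and 52.9 in that order, and replicate 2 scores 41.1, 57.1 and 39.4. The site at 23003296 alone was thresholded in both replicates, while the others passed in replicate 1 alone. The last of the 3, which lies 11168 bp upstream of the nearest twi start, is also inside CG42741, and all 3 had another gene as nearest: CG9896 for the first pair and CG42741 for the last. The Twist-type E-box CATATG was in the window around 23002066, the 1 member site that held it.

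lmd (FBgn0039039, 3R, 23021222 to 23026713, minus strand) and htl (FBgn0010389, 3R, 18045216 to 18052984, minus strand) had 1 site each, and both replicates shared both. The lmd summit at 23028694 scored 225, with 131 in replicate 1 and 94.2 in replicate 2, in intergenic sequence 1981 bp upstream of the gene. The htl summit at 18049754 scored 156, with 97.6 in replicate 1 and 63.5 in replicate 2. It lay in an intron of the long transcript, 388 bp upstream of the internal annotated start of htl. No other coding gene overlaps either window.

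how (FBgn0264491, 3R, 22042191 to 22079321) had 3 sites, each thresholded in both replicates. The intronic summit at 22049313, 7122 bp into the gene, was the strongest, with a score of 372, 196 in replicate 1 and 174 in replicate 2. Upstream, the summit at 22039653 scored 212 (132 in replicate 1 and 75.5 in replicate 2), 2538 bp from the single annotated start. The summit nearest the start, 403 bp upstream at 22041788, was the weakest, with 127 in the conservative list, 72.0 in replicate 1 and 52.9 in replicate 2. All 3 had how as the nearest coding gene. Each of the 3 windows holds 1 E-box, and the upstream one, shown above with the intronic one, is of the form CAGGTG.

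mbc (FBgn0015513, 3R, 23781765 to 23801634) had 3 sites within 2352 bp of its start, and both replicates shared them. The summit at 23781569 scored 427, with 259.8 in replicate 1 and 162 in replicate 2. It lay 196 bp upstream of mbc and 52 bp downstream of the divergent start of Nup98-96, a nucleoporin gene, so the site cannot be given to 1 of the genes by position. The summit at 23782927, 1162 bp downstream of the mbc start in an intron, was nearly as strong, with 398, and 245 in replicate 1 and 152 in replicate 2. The third, at 23784117 and 2352 bp downstream, scored 199. It was the 1 mbc site with the higher score in replicate 2, 116 against 78.9 in replicate 1. A weaker peak, with a score of 88.1 in the list ranked from the replicate pair, did not reach the conservative list.

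rols (FBgn0041096, 3L, 12008225 to 12064859, minus strand) had 7 conservative summits, all inside the gene. The strongest, at 12056822, scored 264, with 163 in replicate 1 and 116 in replicate 2. It lay 348 bp upstream of the internal annotated start of rols. Further into the gene the summits at 12053921, 12050796 and 12037935 scored 124, 116 and 146. Each of these 4 was thresholded in both replicates. The summits at 12057029 (score 100.5) and 12057860 (68.4) lie beside the strongest one, and 12016351 (70.9) near the 3′ end. These 3 were thresholded in neither replicate's own list. No conservative summit lay within 1000 bp of the upstream start of the long transcripts.

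kirre (FBgn0028369, X, 2740384 to 3134532) had 29 conservative summits, the most of all 13968 coding gene windows. Next came CG1677 with 24 and sbb with 20. Its window spans 404 kb, and 5 coding genes, kirre included, have a window at least that long. Per length the window held 0.718 summits per 10 kb, against 0.602 over the X chromosome. The other genes off the Y chromosome with windows of at least 200 kb had between 0 and 11 summits, the 11 at Ten-a, a teneurin gene also on the X chromosome. CG17684, DIP-lambda, lovit, Pzl, Myo81F and l(3)80Fg had 0. How well reads map in these long windows was not examined, so they are not a matched set for kirre.

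**Figure D2:**
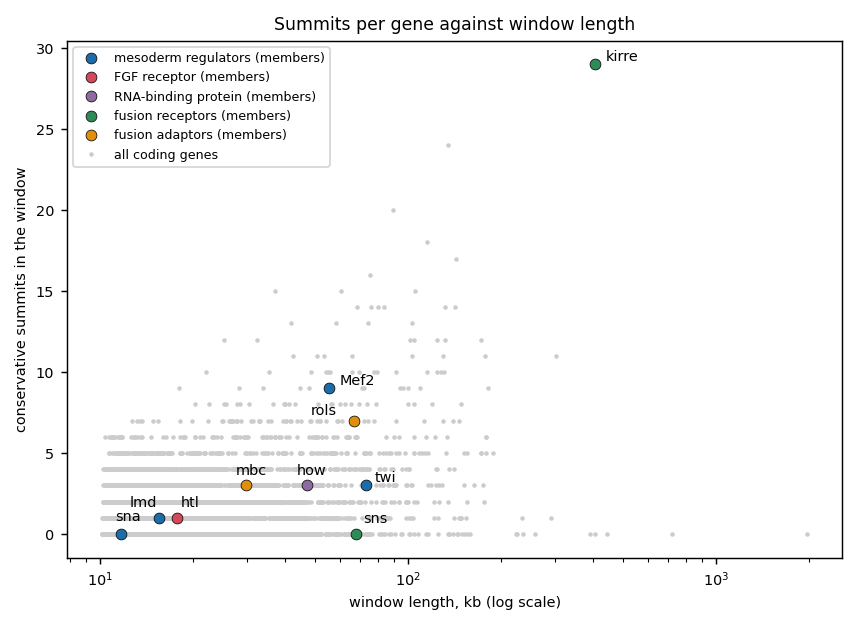
Number of conservative summits in each coding gene's window against window length in kb (log scale), with the 10 members in colour and all coding genes in grey. Kirre stands at 29 summits and 404 kb, Mef2 at 9 summits and sns at 0 with a window of 67.6 kb.

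The kirre sites were spread unevenly along the gene. Between its first pair of starts and the internal start at 2989051 there were 12 summits over 248 kb, or 0.483 per 10 kb. The next 110.5 kb, up to the start at 3099550, held 14, or 1.27 per 10 kb. Within that stretch 11 summits, scoring 54.9 to 259.7, lay within 52.9 kb from 2993261 to 3046181. After the late starts there was 1 summit in the next 29.1 kb and 2 in the last 10.9 kb of the window. The longest gap between neighbouring summits was 51631 bp and the median gap 7439.5 bp.

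The 6 highest kirre sites were not all nearest to kirre. The top summit, at 2786780, scored 510.0 (284 in replicate 1 and 234 in replicate 2) and the one at 2787428 scored 358 (201 and 171); both also lie inside CG32795. Summits at 2743286 (400.5, with 216 and 175) and 2744217 (333, with 202 and 129) were 328 bp and 141 bp upstream of starts of Syx4, a syntaxin gene on the other strand. The remaining pair had kirre as the nearest gene: 3097201 scored 408 (218 and 195) and lay 2349 bp upstream of a late kirre start, and 3019775 scored 259.7 (143 and 114) and lay 30724 bp past the internal start. All 6 were thresholded in both replicates.

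Other genes nested in kirre or beside it accounted for several of its sites by position. Its window overlaps 24 other coding genes, 21 of them nested, and 19 of its 29 summits had one of these or a flanking gene as nearest, against 10 with kirre. Of the 19, 6 lay within 1000 bp of the other gene's start. Among them were 3134595 (score 154) and 3134801 (10.5), 275 bp and 69 bp upstream of N, which encodes the Notch receptor. rst, a paralogue of kirre in cell adhesion, is nested within kirre on the other strand, and the summit at 2951897 (score 101) lay in its untranslated sequence near its 3′ end, while 2950342 (76.1) lay just beyond that end. Of the 29 kirre sites 17 were thresholded in both replicates, 7 in replicate 1 alone, 1 in replicate 2 alone and 4 in neither.

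sns and sna stood apart within the list by having no conservative summit, no thresholded summit in either replicate and none in the other thresholded list of the series. sns (FBgn0024189, 2R, 8798489 to 8856091) had 76 peaks in the list ranked from the replicate pair, or 11.2 per 10 kb. This density was not particular to sns: sna had 11.1, Mef2 11.4 and mbc 12.7, and how had the lowest of the members, 6.37. Over the whole arms, not gene windows alone, it was 6.57 per 10 kb. None of the sns peaks reached the scaled IDR of 830 that every conservative peak had. The highest score was 54.0, at 8795777, 2712 bp upstream of the start, with a scaled IDR of 400. The highest scaled IDR was 737, for a peak with a score of 44.8 inside the gene, 16352 bp downstream of the start. In the replicates' own ranked lists the highest peaks scored 30.9 in replicate 1, at 8860068 beyond the 3′ end, and 33.2 in replicate 2, at 8814768 inside the gene. The nearest conservative summit was 38642 bp from the gene.

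sna (FBgn0003448, 2L, 15476593 to 15478260, minus strand) had 13 ranked peaks in its window of 11.7 kb. The highest score was 42.9, at 15474635 and 3625 bp downstream of the start, and the highest scaled IDR was 362, for a peak with a score of 36.3 at 15476099. In the replicates' own ranked lists the highest peaks of the window scored 22.7 in replicate 1, 3720 bp downstream, and 25.6 in replicate 2, 50 bp upstream of the start, so the replicates did not put their highest peak in the same place. The nearest conservative summit was 20755 bp from the gene. In the windows of the other members the strongest peak that fell below 830 scored between 38.8 (how) and 91.1 (kirre), a range that holds the top scores of both sns and sna. In all windows together, the 56 ranked peaks at 830 or more were the 56 in the conservative list. This match reflects the threshold behind that list and is not a separate result.

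**Figure D3:**
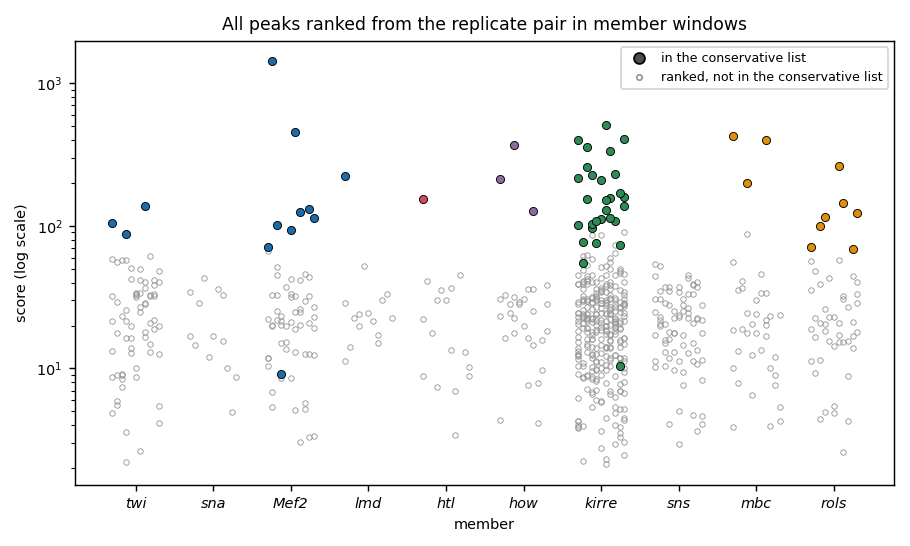
Scores (log scale) of all peaks ranked from the replicate pair in the window of each member; filled circles are in the conservative list and open ones are not. sns and sna have open circles alone, with highest scores of 54.0 and 42.9, and the filled circles at 9.14 (Mef2) and 10.5 (kirre) sit far below the rest.

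The member sites were about as well shared by the replicates as conservative sites in general. A thresholded summit lay within 100 bp in both replicates for 32 of the 56 (57.1%), against 56.5% of the 6824 conservative summits on the arms. The share was 4 of 13 for mesoderm regulators, 17 of 29 for fusion receptors and 7 of 10 for fusion adaptors. At how and htl it was 4 of 4. All 29 fusion receptor sites lay in the kirre window, as sns had none. The Mef2 window held 9 of the 13 mesoderm regulator sites. A difference among roles therefore cannot be told apart from one among single genes. These shares are counts of a few sites in windows chosen as a list, and no test was made of them. Replicate 1 scored higher than replicate 2 at 44 of the 51 member sites with a ranked peak in each (86.3%), with a median ratio of 1.32. Over all conservative sites replicate 1 was the higher at 80.8%, with a median ratio of 1.25, so the members had the same direction as the whole list. Scores of separate lists share no stated scale, so the members' ratio has meaning only beside that of the whole list.

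**Figure D4:**
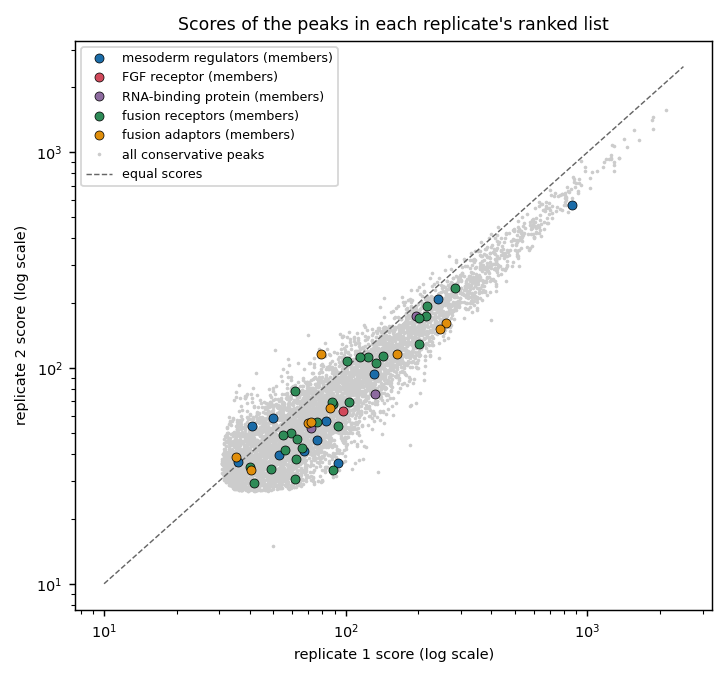
Replicate 1 score against replicate 2 score (both log scale) for peaks of each replicate's ranked list with a summit within 100 bp of a conservative summit; members are coloured by role, all conservative peaks are grey, and the dashed line marks equal scores. Members lie within the grey cloud, with Mef2 at 861 and 572 as the highest.

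Most member sites lay in introns and away from starts. Introns of coding genes held 47 of 56 member summits (83.9%), against 49.7% of all conservative summits. Introns also make up 76.4% of the bases of the members' windows. No member summit was in a coding exon, though coding exons are 10.2% of the window bases; over all conservative summits the share was 0.923%. A coding TSS lay within 1000 bp of 13 member summits (23.2%), against 47.6% of all conservative summits, and such positions are 14.7% of the window bases. The median distance to the nearest coding TSS was 3958 bp for member summits and 1180.5 bp for all conservative summits. Without kirre it was 2553 bp for the other members' 27 summits, of which 77.8% were intronic, against 64.0% of the bases of those windows. Their strength was ordinary, with a median score of 134 against 129, and so was the mean GC content of the windows, 33.2% ± 7.70 against 33.3% ± 9.85 (SD over sites).

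Each share of member sites with a motif rests on few sites. Each motif was searched on both strands within 50 bp of the summit, overlaps between motifs included. TAATCC, the core that homeodomains of the Pitx and Bicoid class read, was in 3 windows (5.36%), against 3.81% of all conservative windows; within 100 bp it was 5.36%, against 6.92%. They were the pair of kirre sites beside Syx4 and the Mef2 intronic site at 9941671. TAAGCC was in 2 (3.57%, against 4.37%) and TAATTA in 6 (10.7%, against 10.7%), of which 5 were in kirre and 1 in mbc. E-boxes of the form CANNTG were in 20 (35.7%, against 33.4%), while CATATG was in 1 (1.79%, against 3.85%), CACATG in 2 (3.57%, against 3.39%) and CAGGTG in 2 (3.57%, against 2.42%). The Mef2 motif was in 6 (10.7%, against 7.31%). GATAA was in 11 (19.6%, against 23.3%) and GAGAG in 5 (8.93%, against 8.76%). TATCGATA and TCAAGTG were in none, against 1.42% and 1.51% of all windows. A match is a description of the letters and not a site of action.

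Further genes of the same or related processes were counted from a list of 41. Of these, 32 had a conservative summit in their window, against the 56.6% of coding genes given above. The windows of the 41 were longer, with a median of 17.3 kb against 12.2 kb over all coding genes. The 56.6% is not matched for window length. Of 15 other genes listed as mesoderm regulators 11 had a summit. The strongest were at tin, the NK-homeobox gene of the heart and visceral mesoderm (761 in the conservative list, 416 in replicate 1 and 339.7 in replicate 2, 218 bp upstream of its start), sr, a tendon cell factor (714, with 415 and 303) and zfh1 (587, with 356 and 226). All 5 FGF pathway genes had one, led by the ligand gene ths with 545 (309 and 231), the adaptor gene stumps with 271 (155 and 114, although CG7987 has the nearest start) and bnl with 177 (80.6 and 103). ths had 6 summits in its window.

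Of 13 genes of the fusion machinery 10 had a summit, and the highest lay near starts of neighbours. The site in the Hem window (478) was 294 bp upstream of Hem and 176 bp upstream of IleRS, so which of them it belongs to cannot be told apart by position. The Ced-12 site (385) was 201 bp upstream of ThrRS, and the top siz site (320.3) 216 bp upstream of Polr3E. Both further fusion receptor genes had one: hbs, a relative of sns, a single site of 122 in an intron 23546 bp into the gene, and rst the sites it shares with the kirre window. Of 6 dorsal pathway genes 4 had one, led by cact (605, 164 bp upstream), pll (381, 78 bp upstream) and spz (100.2, 327 bp upstream). Genes without a summit were bap, slou, lbe, ap, sing, Crk, dock, dl and tub. Of these, ap and Crk had no peak even in the list ranked from the replicate pair. Their nearest conservative summits were 246981 bp and 211656 bp away. How well reads map there was not examined, so these windows cannot be read as free of binding. Neighbouring genes can share a summit, as Doc2 and Doc3 share one of 182, so these genes are not independent units.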

How the data were processed

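Peak lists of 2 biological replicates of the strain Ptx1-GFP, forming 1 group, were used. Per the deposited file names and notes, the lists hold dm6 peaks after IDR analysis, ranked or thresholded, for single replicates and for both together. Aligner, peak caller and versions: not given in the sources used here. The authors' strength score has no stated unit; their second score, a scaled IDR, reaches 1000 at most. The deposited −log10 q values were not used further. Summits were column 2 plus column 10, written 1-based.

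Genes and starts came from Ensembl 115 (BDGP6), and sequence from the RefSeq release 6 genome, on which the peaks of every arm ended within the arm's length. A summit was counted for a gene when it lay in the gene body or within 5000 bp; a replicate's score at a site is that of its ranked peak with a summit within 100 bp. Places in introns, exons and intergenic sequence refer to coding genes. Of 51 listed genes all matched, 1 by a synonym. The members and lists were chosen with earlier results of these data known, the length classes after seeing window lengths, and with 1 group no test was made: shares of the members stand beside those of all coding genes. Named were all members, up to 6 summits of each by score and up to 3 other genes per group; sites beyond 6 at Mef2, rols and kirre, other long genes, Doc2, Doc3 and genes without a summit were named after their values were seen. Alternatives covered peak list, score, window, assignment and distance. Functions were tested on simulated data. Python 3.11.15, numpy 2.4.6 and matplotlib 3.10.9 were used.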

Additional observations from a re-analysis of the deposited data

How the results depend on the processing

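The 8 members with a summit in the window became 7 with the gene body alone (lmd dropped out) and 7 by nearest TSS (twi), and stayed 8 with the other thresholded list, either replicate's own list, the peaks scoring above the list's median, and the other windows. The 56 member summits numbered 30 among the peaks scoring above the median and 27 without kirre, an alternative chosen after seeing the data. In the whole list the cut at the median removes about as many peaks as it leaves. By nearest coding TSS the members had 30 summits, 29 of the 56 and 1 of rols outside its window. Under the remaining alternatives they numbered 42 to 66. The other mesoderm and fusion genes with a summit, 32 of 41, numbered 17 with the gene body alone, 20 by nearest TSS and 23 to 36 otherwise. By nearest TSS the share of all coding genes was 28.0%. The members with a summit within 1000 bp of a TSS, 4, were 4 within 500 bp, 3 among the peaks above the median and 6 within 2000 bp. Shares of all coding genes are not given for most of these alternatives. A change in these counts therefore cannot be told apart from one common to all genes. The 32 sites shared by both replicates were 33 to 36 under wider criteria. Merging peaks that share bases and leaving out summits within 1000 bp of another gene's TSS, both chosen after seeing the data, left 53 and 47 summits in the same number of members. With windows of 100 bp either side of the summit, TAATCC was in 5.36% of member windows, now below the 6.92% of all conservative windows, and TAATTA in 10.7%, against 18.3%. CATATG was in 8.93%, against 7.17%, CACATG in 16.1% (9 windows, in 3 genes), against 7.47%, and CANNTG in 64.3%, against 58.4%. The Mef2 motif was in 14.3%, against 12.7%. The E-box CAGGTG went the other way, with 3.57%, against 4.87%. Also lower were TAAGCC (3.57%, against 7.81%), GATAA (33.9%, against 40.5%), GAGAG (17.9%, against 20.4%), TCAAGTG (3.57%, against 3.72%) and TATCGATA (0%, against 2.73%). No paired analysis was possible because both replicates belong to 1 group. With no control sample analysed here and read depth unknown, a window without a conservative summit shows only that none passed the authors' thresholds.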

Other observations

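The filled points at very low scores in the Mef2 and kirre windows belong to pairs of peaks that share bases. In Mef2 the summits at 9936001 and 9936222 are 221 bp apart and score 124 and 9.14; in kirre, those at 3134595 and 3134801 are 206 bp apart and score 154 and 10.5. At rols the summits at 12056822 and 12057029 are 207 bp apart and score 264 and 100.5. All 6 have a scaled IDR of 1000. Over the arms, 200 of the 201 conservative peaks that score under 12 share bases with another conservative peak, against 835 of all 6824. The cut of 12 was chosen after these values were seen.

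Peaks with higher scores can fail the threshold. In the kirre window a ranked peak with a score of 91.1 was below the scaled IDR of 830, while 5 conservative kirre summits scored less than that peak.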
